A study of Rattus norvegicus with 16 samples.

Results

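Genes of endoplasmic reticulum (ER) stress and protein folding were followed across 4 groups of rat hippocampus. The 9 members were chosen by name for their function: the chaperones Hspa5, Hsp90b1 and Calr, the protein disulfide isomerases Pdia2, Pdia3 and Pdia4, and the transcription factors Xbp1, Atf4 and Ddit3. Of these, 8 had a probe, among 13903 gene symbols with a probe on the array, and each was read by 1 probe with 1 spot. No probe was matched to Pdia3, which is not analysed here. The dim signal of Pdia2 in controls was in view when the members were chosen, so its values are a description without a test, and counts of calls cover the 7 other measured members.

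The tissue came from male Sprague-Dawley rats. Animals were allotted at random, with baseline sucrose intake taken into account, to no stress (control) or to 8 weeks of chronic mild stress (CMS), a rodent model of depression in which mild stressors are applied in turn. The stressed rats carry 3 labels, depression-susceptible, anxiety-susceptible and insusceptible, and every group has 4 single-colour arrays. The behavioural criteria behind the labels, the ages at sampling, and the number of animals behind the arrays are not given in the sources used here. The comparisons ask how each stressed group differed from control, and how the stressed groups differed from each other.

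The ER folds secreted and membrane proteins, and its lumen holds chaperones and enzymes that form disulfide bonds. When unfolded proteins build up, the sensors IRE1, PERK and ATF6 start the unfolded protein response: IRE1 splices the Xbp1 transcript, PERK slows translation while favouring that of ATF4, and ATF6 is cut into a transcription factor. ATF6 and XBP1 induce chaperones through a promoter sequence called the ER stress response element (ERSE), whereas ATF4 induces amino acid and redox genes and Ddit3, which encodes CHOP. An array probe reads the amount of a transcript and not its splicing or translation.

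The promoters show which members carry the ERSE, and these are the stretches in which it lies. In the 250 bases before each gene's start (RefSeq, assembly GRCr8), both strands were searched for the ERSE, CCAAT and CCACG with any 9 bases between them. It occurred in 22 of 33469 promoters (0.0657%) and in 4 of the 8 members that had a promoter entry. In the lines that follow, the ERSE is in capitals, on the gene's strand or its reverse complement, and each sequence ends before the gene's start.
Hspa5, chr3:38452943-38453015, plus strand: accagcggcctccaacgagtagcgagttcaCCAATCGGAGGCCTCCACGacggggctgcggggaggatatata
Hsp90b1, chr7:23012317-23012499, minus strand: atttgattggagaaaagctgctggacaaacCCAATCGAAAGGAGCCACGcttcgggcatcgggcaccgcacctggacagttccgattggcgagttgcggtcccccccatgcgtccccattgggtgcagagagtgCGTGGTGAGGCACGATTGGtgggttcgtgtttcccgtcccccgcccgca
Calr, chr19:40213117-40213183, plus strand: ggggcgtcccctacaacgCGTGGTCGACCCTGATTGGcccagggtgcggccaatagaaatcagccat
Xbp1, chr14:84604528-84604606, plus strand: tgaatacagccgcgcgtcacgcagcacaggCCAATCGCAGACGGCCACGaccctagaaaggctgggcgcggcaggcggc

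Hsp90b1 held 2 copies, 1 on each strand, and the copy in Calr lay on the strand opposite to the gene. Of the shorter elements, ERSE-II (ATTGG and CCACG with 1 base between them) occurred in 0.0418% of all promoters, the UPRE (TGACGTGG) in 0.52%, the CARE (TGATGCAA, an ATF4 and CHOP element) in 0.693% and the CRE (TGACGTCA) in 1.59%. These letters were found in 0 of the 8 member promoters for each of these 4 elements, which says only that they are not in this window. ERSE and ERSE-II share the CCAAT and CCACG blocks, and the UPRE and the CRE share TGACGT. A match is a description of the letters and not a site of binding. Besides the members, ERSE matches lay before Canx, Creld2, Dnajc3, Derl3, Calr4 and Ero1b, all of them ER proteins, and before genes outside the ER.

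Levels are given as the log2 processed signal relative to the array's 75th percentile, which is set to 0. The control and depression-susceptible arrays shared slides 1 and 2, with 2 of each on either slide, and were read on day 1, with a 75th percentile signal of 2997 to 3382. The anxiety-susceptible arrays (slide 3) and the insusceptible arrays (slide 4) were read on day 2, at 1077 to 1248. Only depression-susceptible and control arrays can be compared within a slide, and even there position on the slide follows the group. Elsewhere group and slide cannot be told apart, nor can group and day between groups read on different days. Arrays of 1 group on 1 slide varied by 0.748 to 0.917 times what repeated spots of a probe predict, so they were averaged, leaving 6 samples: 2 each of control and depression-susceptible rats and 1 each of the day 2 groups. The SE of each difference therefore measures spread between slides 1 and 2, and the lone samples are assumed to vary like the others. Both slides were read on day 1, so no SE or p-value holds spread between days. Whether the arrays of different groups overlap is given as a description only. As arrays of a group on a slide vary no more than spots do, they separate easily. The share of all probes without overlap was not counted. Of 9 hippocampal neuron markers with a probe, 7 or 8 were well above background on every array of each group. In depression-susceptible, anxiety-susceptible and insusceptible rats 3, 3 and 3 of the 9 were lower than control, and 0, 0 and 1 higher. Of all probes, 3.15%, 16.6% and 14.3% were lower. Choroid plexus markers moved with the groups: of 11 with a probe, 11, 10 and 11 were lower than control in depression-susceptible, anxiety-susceptible and insusceptible rats, and their summed linear level was 153 to 183 in control, 38.8 to 43.9, 136 to 155 and 20.5 to 20.9. Red blood cell markers had summed levels of 1.37 to 1.42 in control and of 24.2 to 26.02, 0.961 to 1.02 and 2.54 to 2.63 in the same 3 groups, with 5, 0 and 4 of 7 higher and 1, 2 and 1 lower. Of the choroid plexus and red blood cell markers, those above background on no array of a group were Kl (depression-susceptible and insusceptible), Slc4a5 (insusceptible) and Epb42 (anxiety-susceptible and insusceptible). The part of these cells in the results on ER genes was not tested. In whole tissue, fewer cells of a type and less RNA per cell cannot be told apart.

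Against control, Hsp90b1 and Atf4 fell in anxiety-susceptible and in insusceptible rats, and none of the 7 counted members passed as higher over 6 samples. In anxiety-susceptible rats 2 of 7 members were called, both lower (30.1% of all probes were called). In insusceptible rats 2 of 7 were called and both were lower (30.2% of all probes). In depression-susceptible rats 0 of 7 passed limma's test over 6 samples, against 9.91% of all probes. This fit has no term for slide, although these arrays share slides with control. With slide as a block, given further on, more members passed, as did more of all probes (38.4%). Over 6 samples 3 had an unadjusted p under 0.05. When each of the 16 arrays was taken as a sample 5 passed, where 50.8% of all probes passed. Over 16 arrays the counts were 7 and 6 in anxiety-susceptible and insusceptible rats, where 71.4% and 73.1% of all probes passed. The share of members called is thus near the share of all probes in both day 2 groups. The median difference of the 7 members was -0.25, -0.33 and -0.23 in depression-susceptible, anxiety-susceptible and insusceptible rats, against -0.04, -0.05 and 0.01 over all probes. Under quantile normalization, which forces 1 distribution on all arrays, the members' medians were 0.07, -0.08 and -0.01, against -0.02, -0.05 and -0.01. With it 1, 1 and 2 members were called against control (10.1%, 30.5% and 28.7% of all probes).

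**Figure D1:**
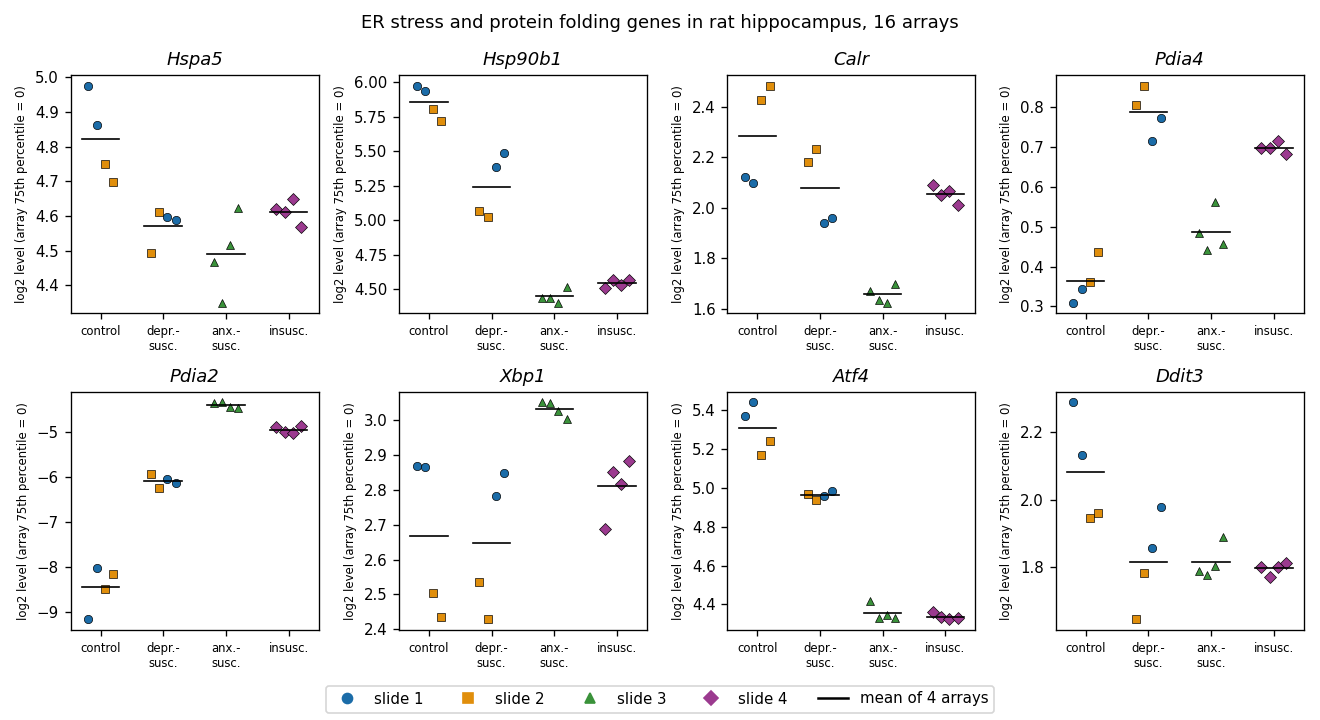
Level of the 8 measured members on each of the 16 arrays (y axis, log2 signal relative to the array's 75th percentile; each panel has its own scale), by group (x axis), with slides as symbols and colours and a line at the mean of 4 arrays. Hsp90b1 and Atf4 lie lowest on slides 3 and 4, Xbp1 lies highest on slide 3, and Pdia2 lies lowest in controls.

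Hsp90b1 encodes GRP94, the ER member of the Hsp90 chaperones. Its level on the control arrays was 5.98 and 5.94 on slide 1 and 5.81 and 5.72 on slide 2. The depression-susceptible arrays stood at 5.39 and 5.49 on slide 1 and at 5.06 and 5.02 on slide 2. The 4 anxiety-susceptible arrays read 4.44, 4.43, 4.40 and 4.52, and the 4 insusceptible arrays 4.51, 4.57, 4.53 and 4.57. Every control array was above every depression-susceptible array, and these were above all arrays of the other 2 groups, which overlapped. Hsp90b1 fell by 1.41 in anxiety-susceptible rats (SE 0.21, limma adjusted p = 0.0221), which is 2.66-fold, and fell by 1.32 in insusceptible rats (SE 0.21, limma adjusted p = 0.0243). The difference of depression-susceptible rats from control was -0.62 (SE 0.17, limma adjusted p = 0.108). Within slides 1 and 2 that difference was -0.52 and -0.72, and with slide as a block the limma adjusted p was 0.0174. Under quantile normalization the differences were smaller, at -0.98 (limma adjusted p = 0.0144) in anxiety-susceptible rats, -0.85 (0.0192) in insusceptible and -0.22 (0.246) in depression-susceptible rats.

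Hspa5 encodes BiP, the ER Hsp70 chaperone that binds the sensors at rest. The control arrays read 4.98 and 4.86 on slide 1 and 4.75 and 4.70 on slide 2, and the depression-susceptible arrays 4.60 and 4.59 on slide 1 and 4.49 and 4.61 on slide 2. Anxiety-susceptible arrays stood at 4.47, 4.35, 4.52 and 4.62, and insusceptible arrays at 4.62, 4.61, 4.65 and 4.57. All control arrays were higher than all stressed arrays, and the 3 stressed groups overlapped with each other. The differences from control were -0.25 (SE 0.10, limma adjusted p = 0.194), -0.33 (SE 0.12, 0.113) and -0.21 (SE 0.12, 0.253) in depression-susceptible, anxiety-susceptible and insusceptible rats. Their sign turned under quantile normalization, to 0.09, 0.10 and 0.26, with limma adjusted p of 0.55, 0.475 and 0.13. The direction of Hspa5 relative to control therefore depends on the scaling.

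Calr encodes calreticulin, which holds calcium and folds glycoproteins. It differed between slides more than between groups on them: control arrays read 2.12 and 2.10 on slide 1 but 2.42 and 2.48 on slide 2, and depression-susceptible arrays 1.94 and 1.96 on slide 1 but 2.18 and 2.23 on slide 2. Within either slide the control arrays were the higher, by 0.16 and 0.25, while across slides the groups overlapped. Anxiety-susceptible arrays were below all others, at 1.67, 1.63, 1.62 and 1.70, and insusceptible arrays stood at 2.09, 2.05, 2.07 and 2.01. The difference from control was -0.63 (SE 0.21, limma adjusted p = 0.0918) in anxiety-susceptible rats, -0.20 (SE 0.17, 0.474) in depression-susceptible rats and -0.23 (SE 0.21, 0.434) in insusceptible rats. None passed, and quantile normalization gave -0.41, -0.09 and -0.01.

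**Figure D2:**
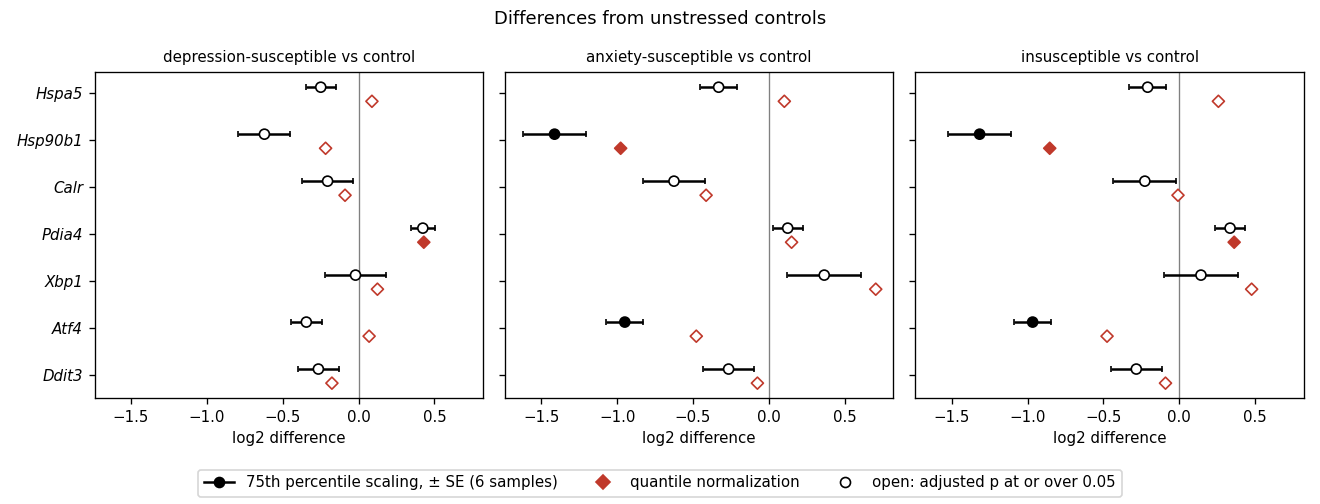
Log2 difference of each stressed group from control (x axis) for the 7 members other than Pdia2 (y axis), with the SE over 6 samples (black circles) and the value under quantile normalization (red diamonds); filled symbols have a limma adjusted p under 0.05. Hsp90b1 is filled under both scalings in the anxiety-susceptible and insusceptible panels, Atf4 only under the 75th percentile scaling, and Hspa5 lies on opposite sides of 0.

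Pdia4, the disulfide isomerase also called ERp72, was the counted member that stood higher than control in each stressed group. The control arrays read 0.31 and 0.34 on slide 1 and 0.36 and 0.44 on slide 2. The depression-susceptible arrays read 0.71 and 0.77 on slide 1 and 0.81 and 0.85 on slide 2, and the insusceptible arrays 0.70, 0.70, 0.71 and 0.68. Anxiety-susceptible arrays lay between these and control, at 0.49, 0.44, 0.56 and 0.46. The 4 groups did not overlap, though the lowest depression-susceptible array (0.715) was level with the highest insusceptible one (0.714). How many of all probes separate in this way was not counted. The depression-susceptible difference of 0.42 (SE 0.08) had a limma adjusted p of 0.0583, and it was nearly the same on both slides, at 0.42 and 0.43. It passed with slide as a block (limma adjusted p = 0.0163) and under quantile normalization (0.43, 0.0355). The insusceptible difference was 0.33 (SE 0.10, limma adjusted p = 0.0743; 0.36 and 0.0419 under quantile normalization), and the anxiety-susceptible difference 0.12 (SE 0.10, 0.387).

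Pdia2 encodes a disulfide isomerase best known from the pancreas, and here it was a dim transcript. The scanner software called its spot well above background on all 12 stressed arrays and on 0 of the 4 arrays from controls. Before any scaling, the spot's scanner signal was 47, 67, 73 and 75 on the control arrays, where the median negative control spot read 51.5 to 64.0. It was 96 to 114 on depression-susceptible arrays (negative controls 51 to 61.5), 105 to 117 on anxiety-susceptible arrays (50 to 53) and 106 to 114 on insusceptible arrays (66 to 72.5). The control spots thus lay close to the negative controls, and the 3 stressed groups overlapped. The background-subtracted processed signal was 5.20, 11.6, 8.55 and 10.9 in control, 55.4, 39.6, 48.9 and 42.5 in depression-susceptible, 59.1, 61.2, 52.2 and 48.7 in anxiety-susceptible arrays, and 41.1, 38.7, 38.1 and 41.9 in insusceptible arrays.

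After scaling, the stressed groups stood apart. The Pdia2 levels were -9.17, -8.02, -8.48 and -8.16 in control, -5.93, -6.25, -6.04 and -6.15 in depression-susceptible arrays, -4.36, -4.35, -4.44 and -4.47 in anxiety-susceptible arrays and -4.89, -4.99, -5.04 and -4.88 in insusceptible arrays. The gap between the day 1 and day 2 stressed groups appeared only with the scaling, since the 75th percentile was lower on day 2. Each control array's Pdia2 signal was also set no lower than that array's dimmest well-above-background probe. The scaled level was then 2.44-fold higher in depression-susceptible rats, 7.88-fold in anxiety-susceptible rats and 5.39-fold in insusceptible rats. That probe is no upper limit for a spot not called above background, so these folds are not minimal values. They hold for the scanner's processed signal only. The measured log2 differences were 2.37, 4.06 and 3.51. With another background correction (normexp, refitted without spots of extreme local background) they were 0.48, 1.92 and 1.81. Normexp here added a constant of 50 to every spot before scaling, while the subtracted Pdia2 signal was only 17 to 86. The lower 75th percentile of day 2 raises the scaled level of such a constant. Its part in these differences was not tested. Normexp over all spots gave -0.50, 0.94 and 1.35, but that fit failed on control replicate 3 and insusceptible replicate 2, and the sign for depression-susceptible rats turned only there. The size of each difference depended on the background step, in which the subtraction and the added constant were not told apart. Of the 6500 probes above background on no control array, 2.17% were above it on all 4 depression-susceptible, 1.28% on all anxiety-susceptible and 0.585% on all insusceptible arrays.

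**Figure D3:**
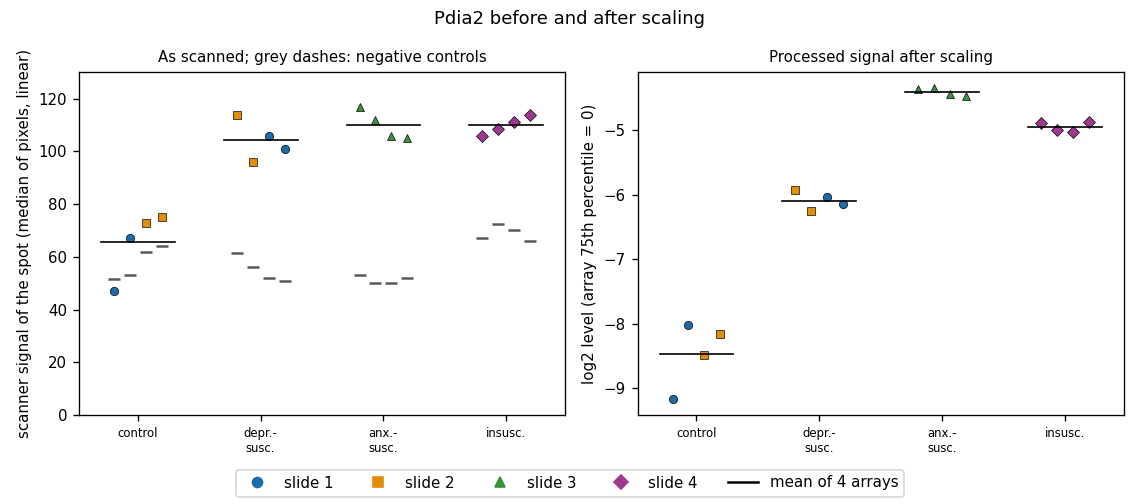
Pdia2 on the 16 arrays by group: on the left the spot's scanner signal (linear y axis from 0) with the median negative control spot of the same array as a grey dash, on the right the log2 processed signal relative to the array's 75th percentile. Control spots lie at 47 to 75, near the negative controls, the stressed groups overlap on the left at 96 to 117, and they separate on the right.

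Xbp1 encodes the transcription factor that IRE1 activates by splicing. Control arrays read 2.87 and 2.87 on slide 1 and 2.50 and 2.43 on slide 2, and depression-susceptible arrays 2.78 and 2.85 on slide 1 and 2.53 and 2.43 on slide 2. The level thus followed the slide, and within slides the depression-susceptible rats differed from control by -0.05 and 0.01. Anxiety-susceptible arrays were above all others, at 3.051, 3.051, 3.026 and 3.003, and insusceptible arrays, at 2.69, 2.85, 2.82 and 2.88, overlapped with control. The differences from control were -0.02 (SE 0.20, limma adjusted p = 0.96), 0.36 (SE 0.24, 0.306) and 0.14 (SE 0.24, 0.677) in depression-susceptible, anxiety-susceptible and insusceptible rats, and none passed. Under quantile normalization they were 0.12 (limma adjusted p = 0.691), 0.70 (0.0763) and 0.48 (0.164), so the sign for depression-susceptible rats turned, and with the refitted normexp the insusceptible value was -0.02.

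Atf4 encodes the transcription factor translated when PERK and related kinases slow translation. Control arrays read 5.37 and 5.44 on slide 1 and 5.17 and 5.24 on slide 2, and depression-susceptible arrays 4.96 and 4.98 on slide 1 and 4.97 and 4.94 on slide 2. Anxiety-susceptible arrays stood at 4.42, 4.33, 4.34 and 4.33 and insusceptible arrays at 4.36, 4.34, 4.32 and 4.33. All control arrays were highest, the depression-susceptible arrays came next without overlap, and the 2 groups read on day 2 overlapped. Atf4 fell by 0.95 in anxiety-susceptible (SE 0.12, limma adjusted p = 0.0179) and fell by 0.97 in insusceptible rats (SE 0.12, limma adjusted p = 0.0175). These calls were lost under quantile normalization, where both differences were -0.48 with limma adjusted p of 0.0575 and 0.0599. The depression-susceptible difference was -0.34 (SE 0.10, limma adjusted p = 0.117), -0.43 and -0.25 within slides 1 and 2, and 0.07 under quantile normalization.

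Ddit3 encodes CHOP, a transcription factor of prolonged ER stress. Control arrays read 2.29 and 2.13 on slide 1 and 1.95 and 1.96 on slide 2, and depression-susceptible arrays 1.86 and 1.98 on slide 1 and 1.65 and 1.78 on slide 2. The anxiety-susceptible arrays stood at 1.79, 1.78, 1.80 and 1.89 and the insusceptible arrays at 1.80, 1.77, 1.80 and 1.81. Controls were above both day 2 groups on every array but overlapped with depression-susceptible arrays, and the stressed groups overlapped with each other. The differences from control were -0.26 (SE 0.14, limma adjusted p = 0.277) in depression-susceptible rats, -0.27 (SE 0.17) in anxiety-susceptible rats and -0.28 (SE 0.17) in insusceptible rats. None passed. Quantile normalization gave -0.18, -0.08 and -0.09.

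For depression-susceptible rats, which shared slides with controls, slide could be entered as a block. That fit used only the control and depression-susceptible samples and left fewer residual degrees of freedom than the 2 of the main fit. Its p-values therefore lean more on the spread pooled over all probes. With the block 4 of 7 members passed in limma, where 38.4% of all probes passed: Pdia4 rose, and Hsp90b1, Atf4 and Ddit3 fell (limma adjusted p = 0.0163, 0.0174, 0.0389 and 0.0353). Hspa5 (0.061), Calr (0.0633) and Xbp1 (0.776) did not pass. Of the 4, the sign of Atf4 turned under quantile normalization without the block. In the anxiety-susceptible and insusceptible comparisons, the calls for Hsp90b1 and Atf4 rested on both control samples. This was not particular to these genes. Leaving out either control sample also leaves fewer residual degrees of freedom, and it removed most calls over all probes. Without the control sample of slide 1, Hsp90b1 differed by -1.32 (limma adjusted p = 0.0706) and Atf4 by -0.85 (0.0609) in anxiety-susceptible rats, and by -1.22 (0.0741) and -0.87 (0.0577) in insusceptible rats. Without that of slide 2 the values were -1.51 (0.0610) and -1.05 (0.0532), and -1.41 (0.0594) and -1.07 (0.0499), so that only Atf4 in insusceptible rats was still past the threshold.

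Between the stressed groups none of the 7 counted members passed over 6 samples. For depression-susceptible against anxiety-susceptible rats, 0 of 7 passed in limma over 6 samples (0.23% of all probes did), 3 had an unadjusted p under 0.05, and 5 passed over 16 arrays (62% of all probes). Hsp90b1 was 0.79 higher in depression-susceptible rats (SE 0.21, limma adjusted p = 0.103; 0.043 under quantile normalization), Atf4 0.61 higher (SE 0.12, 0.0747) and Pdia4 0.30 higher (SE 0.10, 0.141). For depression-susceptible against insusceptible rats, 0 of 7 passed (0.084% of all probes), 2 had an unadjusted p under 0.05 and 2 passed over 16 arrays (62.1%). There Hsp90b1 differed by 0.70 (SE 0.21, limma adjusted p = 0.131) and Atf4 by 0.62 (SE 0.12, 0.0873). For anxiety-susceptible against insusceptible rats, both read on day 2, 0 of 7 passed (0.0783% of all probes), 0 had an unadjusted p under 0.05 and 2 passed over 16 arrays (37.1%). Those were Pdia4 at -0.21 and Calr at -0.40, with limma adjusted p of 0.624 and 0.661 over 6 samples. Xbp1 differed by 0.22, Hspa5 by -0.12 and Hsp90b1 by -0.10 in this comparison, and Atf4 and Ddit3 by 0.02 each. Pdia2, given without a test, differed by -1.69, -1.14 and 0.55 in the 3 comparisons. Under quantile normalization 1, 0 and 0 members were called in them, where 10.4%, 4.96% and 0.358% of all probes were.

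The other genes of ER stress and folding were read as 8 lists holding 147 genes, of which 119 had a probe and 116 were tested. In depression-susceptible rats 2 rose and 8 fell (8.62%, against 9.91% of all probes), in anxiety-susceptible rats 3 rose and 31 fell (29.3% against 30.1%), and in insusceptible rats 6 rose and 26 fell (27.6% against 30.2%). The share called was close to that of all probes each time, while the calls were mostly falls: over all probes, 6.76%, 13.5% and 16% were higher and 3.15%, 16.6% and 14.3% lower in the same order. The medians of the 116 genes were -0.19, -0.29 and -0.24, and under quantile normalization -0.07, -0.13 and -0.09. Members of these lists are named by a rule of size given under the processing. The comparisons of the 3 stressed groups share their control arrays.

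**Figure D4:**
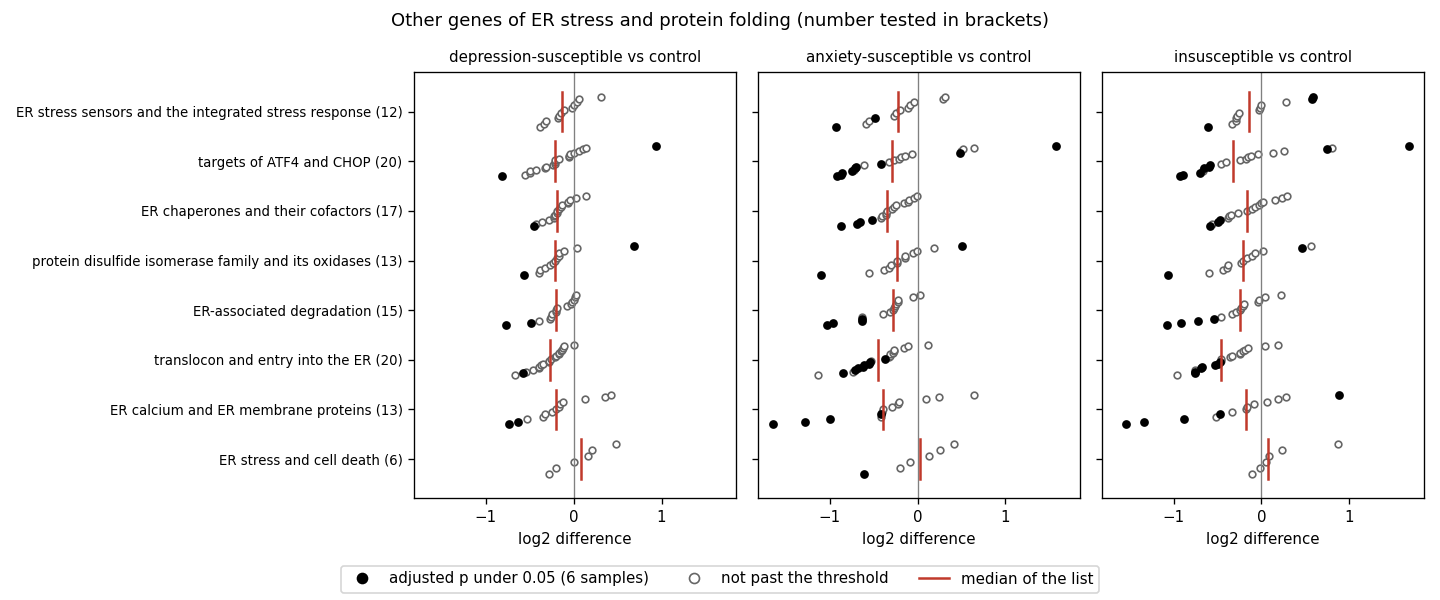
Log2 difference from control (x axis) of the tested genes in each of 8 lists (y axis, number tested in brackets) for the 3 stressed groups; filled points have a limma adjusted p under 0.05 over 6 samples and red lines mark list medians. Under this 75th percentile scaling the medians lie below 0 for all lists but ER stress and cell death; under quantile normalization the sign turns for that list in the anxiety-susceptible and insusceptible groups, and for the disulfide isomerase and translocon lists in the insusceptible group. The filled points to the right of 0 are few in each panel.

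Among 17 tested ER chaperones and cofactors, 1 fell in depression-susceptible rats, 4 in anxiety-susceptible rats and 3 in insusceptible rats, and 0 rose (medians -0.19, -0.35 and -0.16). Of all probes, 3.15%, 16.6% and 14.3% fell in the same order. Canx, calnexin, the membrane partner of calreticulin, stood at -1.81 and -1.77 in the control samples, -2.18 and -2.12 in depression-susceptible samples, -2.66 in the anxiety-susceptible sample and -2.26 in the insusceptible sample. All stressed samples were below both controls, and Canx fell by 0.87 in anxiety-susceptible (SE 0.09, limma adjusted p = 0.0134) and by 0.47 in insusceptible rats (SE 0.09, 0.034). With the refitted normexp these were -0.51 (limma adjusted p = 0.0115) and -0.21 (0.121), so the insusceptible call was lost. Ppib, cyclophilin B, fell by 0.45, 0.65 and 0.59 in the 3 groups, but these calls did not stand under quantile normalization (-0.19, -0.21 and -0.14). Fkbp2, an ER prolyl isomerase, fell by 0.69 in anxiety-susceptible and by 0.50 in insusceptible rats (-0.36 and -0.16 under quantile normalization, where the insusceptible call was lost).

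Of 13 tested disulfide isomerase family genes and oxidases, 1 rose and 1 fell in each stressed group, where 9.91%, 30.1% and 30.2% of all probes were called. The medians were -0.21, -0.23 and -0.21, and -0.05, -0.01 and 0.08 under quantile normalization. Pdia5 read -2.48 and -2.53 in the control samples, -1.77 and -1.85 in depression-susceptible samples, -1.99 in the anxiety-susceptible sample and -2.05 in the insusceptible sample. It was higher in all stressed samples and rose by 0.69 (SE 0.08, limma adjusted p = 0.0198), 0.51 (SE 0.10, 0.0314) and 0.46 (SE 0.10, 0.0379), of which only the depression-susceptible call stood under quantile normalization. Vkorc1, the vitamin K epoxide reductase, fell by 1.103 in anxiety-susceptible and fell by 1.07 in insusceptible rats (SE 0.16 each, limma adjusted p = 0.021 and 0.0216). Prdx4, the ER peroxiredoxin, fell by 0.56 in depression-susceptible rats (SE 0.08, 0.0344).

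In ER-associated degradation, which returns misfolded proteins to the cytosol, 2, 4 and 4 of 15 tested genes fell and 0 rose (medians -0.20, -0.28 and -0.25). Falls made up 3.15%, 16.6% and 14.3% of all probes. Herpud1, a stress-induced scaffold of the degradation complex with an ERSE-II in its promoter window, read 3.55 and 3.46 in control, 2.79 and 2.67 in depression-susceptible samples, 2.54 in the anxiety-susceptible sample and 2.58 in the insusceptible sample. No stressed sample reached a control, and Herpud1 fell by 0.77 (SE 0.09, limma adjusted p = 0.0213), 0.96 (SE 0.11, 0.0147) and 0.92 (SE 0.11, 0.016) in the 3 groups. These calls stood under quantile normalization at -0.54, -0.57 and -0.53. Vcp, the ATPase that pulls substrates out of the membrane, fell by 0.48, 1.02 and 1.08, with -0.16, -0.57 and -0.60 under quantile normalization, where only the insusceptible call stood. Syvn1, the ubiquitin ligase HRD1, fell by 0.63 in anxiety-susceptible and by 0.72 in insusceptible rats, and these calls were lost under quantile normalization (-0.26 and -0.36).

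Of 20 tested genes of the translocon and of entry into the ER, 1, 8 and 7 fell and 0 rose (medians -0.27, -0.45 and -0.46). Of all probes, 3.15%, 16.6% and 14.3% fell. Under quantile normalization 0, 0 and 1 of the 20 genes fell, 0 rose, and the medians were -0.09, -0.08 and 0.0033. Dad1, a subunit of the oligosaccharyltransferase, fell by 0.58, 0.84 and 0.76 in depression-susceptible, anxiety-susceptible and insusceptible rats. Sec61a1 and Sec61b, subunits of the channel, fell by 0.68 and 0.71 in anxiety-susceptible and by 0.69 and 0.76 in insusceptible rats. Under quantile normalization these 7 differences were -0.26 to -0.37, and only that of Sec61b in insusceptible rats was still called (limma adjusted p = 0.0444). The depression-susceptible call for Dad1 was also lost with the refitted normexp (-0.54, limma adjusted p = 0.0549).

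Among the genes named from the lists, Wfs1 and Stim1 had the largest falls in anxiety-susceptible and in insusceptible rats. In depression-susceptible rats the falls of Ddit4 (0.82) and Herpud1 (0.77) were larger. Of 13 tested ER calcium and membrane proteins, 2, 4 and 4 fell and 0, 0 and 1 rose (medians -0.20, -0.39 and -0.18). Falls made up 3.15%, 16.6% and 14.3% of all probes. Wfs1, wolframin, an ER membrane protein that marks CA1 neurons and is also in the neuron marker list, read 3.56 in both control samples, 2.89 and 2.75 in depression-susceptible samples, 1.91 in the anxiety-susceptible sample and 2.02 in the insusceptible sample. It fell by 0.74 (SE 0.09, limma adjusted p = 0.0215), 1.65 (SE 0.11, 0.0071) and 1.54 (SE 0.11, 0.0079). Stim1, the sensor of ER calcium, read 3.09 and 3.15 in control, 2.53 and 2.45 in depression-susceptible samples, 1.83 in the anxiety-susceptible sample and 1.79 in the insusceptible sample. Its differences were -0.63 (SE 0.08, limma adjusted p = 0.0251), -1.29 (SE 0.10, 0.00881) and -1.33 (SE 0.10, 0.00861), and Stim1 thus fell in all 3 groups. Under quantile normalization the Wfs1 calls stood in all 3 groups and those of Stim1 in anxiety-susceptible and insusceptible rats. Calu, calumenin, fell by 0.997 in anxiety-susceptible rats (-0.59 under quantile normalization, limma adjusted p = 0.0234) and by 0.88 in insusceptible rats (0.0134; -0.46 under quantile normalization). Atp2a3, a calcium pump, rose by 0.89 in insusceptible rats.

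Targets of ATF4 and CHOP moved in both directions: of 20 tested, 1 rose and 1 fell in depression-susceptible rats, 2 and 7 in anxiety-susceptible rats and 2 and 6 in insusceptible rats (medians -0.21, -0.29 and -0.32). The share of all probes called was 9.91%, 30.1% and 30.2%. Atf3, a stress-induced transcription factor, read -2.53 and -2.47 in control and -2.61 and -2.50 in depression-susceptible samples, but -0.93 in the anxiety-susceptible and -3.43 in the insusceptible sample. It rose by 1.57 in anxiety-susceptible rats (SE 0.10, limma adjusted p = 0.00735) and fell by 0.93 in insusceptible rats (SE 0.10, 0.0149; -0.39 with the refitted normexp). Nupr1, a stress-response chromatin protein, read -2.77 and -2.46 in control, -1.78 and -1.58 in depression-susceptible samples, -2.10 in the anxiety-susceptible sample and -0.94 in the insusceptible sample, and rose by 0.94 (SE 0.15, limma adjusted p = 0.0404) in depression-susceptible and by 1.68 (SE 0.18, 0.014) in insusceptible rats. Slc7a11, the cystine transporter, fell by 0.92 in anxiety-susceptible and by 0.89 in insusceptible rats (-0.51 and -0.48 under quantile normalization). Ddit4, an inhibitor of mTORC1, fell by 0.82, 0.70 and 0.65 in the 3 groups (limma adjusted p = 0.0162, 0.0212 and 0.0231), with -0.57, -0.25 and -0.20 under quantile normalization. Ero1a, the oxidase that recharges disulfide isomerases, fell by 0.87 in anxiety-susceptible rats.

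Among 12 tested sensors and genes of the integrated stress response, 0 were called in depression-susceptible rats, 2 fell in anxiety-susceptible rats, and 2 rose and 1 fell in insusceptible rats (medians -0.13, -0.22 and -0.14). Here too 9.91%, 30.1% and 30.2% of all probes were called. Ppp1r15a, GADD34, which restores translation, fell by 0.49 and 0.61 in the 2 day 2 groups. Mbtps2, a protease that cuts ATF6, fell by 0.93 in anxiety-susceptible rats (-0.57 with the refitted normexp), while Mbtps1, which makes the earlier cut, and Eif2ak1, a kinase of eIF2alpha, rose by 0.58 and 0.57 in insusceptible rats. Of 6 tested cell death genes, 0, 1 and 0 were called (medians 0.08, 0.02 and 0.07; 0.03, -0.05 and -0.03 under quantile normalization). That one was Pmaip1, NOXA, a dim probe that fell by 0.61 in anxiety-susceptible rats and whose sign turned to 0.77 under the refitted normexp correction.

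Of the 21 gene symbols with an ERSE match, 13 were tested. In depression-susceptible rats 0 passed (9.91% of all probes did), and in anxiety-susceptible and insusceptible rats 1 rose and 4 fell (30.1% and 30.2% of all probes were called), with medians of -0.20, -0.35 and -0.23. The genes called were Hsp90b1, Canx, Ankmy2 and Hnrnpa3, all lower, and Zfp57, which was higher; the last 3 are named after their values were seen.

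Over the 6 samples, the 5 gene symbols whose level followed that of Pdia2 most closely among 11344 were Ltk, Metap1d, Efemp2, Col5a1 and Clk2 (Pearson correlation 0.9975 to 0.9985). Those closest to Hspa5 were Stk32c, Rab12, Ptges3, H1f0 and Galnt10 (0.9899 to 0.993). With 6 samples that share slides, such values are common: 774 symbols had a correlation over 0.9 with Pdia2 and 429 with Hspa5. Among the members, Hsp90b1 and Atf4 had a correlation of 0.974 over the same samples, and Calr and Xbp1 of -0.889.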

How the data were processed

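Rat hippocampal RNA was measured on 16 arrays. Per the labels' protocols, ribosomal RNA was removed and random-primed Cy3 cRNA was hybridised. Per the file headers, the deposited intensity values come from Agilent Feature Extraction 11.0.1.1 (protocol GE1_1100_Jul11), with background subtracted and no step between arrays. A value table was also deposited by the authors, in log2 units and with equal quantiles in all columns; the software behind that table was not stated in the labels or headers read here, and the table served as an alternative. Probe targets were named through their RefSeq identifiers and a GRCr8 gene table (14274 of 15323 messenger RNA probes).

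Spots marked as outliers and control spots were left out, and each array's 75th percentile was subtracted from log2 processed signals. Of 24684 probes, 17880 were well above background on at least 4 arrays and were tested with limma 3.58.1 in R 4.3.3: group means over 6 samples (arrays of a group on a slide averaged), 2 residual degrees of freedom, two-sided moderated tests, Benjamini-Hochberg adjustment over all probes tested and a threshold of 0.05. As nothing says that arrays are separate animals, p-values measure only the spread between these samples, which may be technical, and the number of arrays limits precision. The steps were tested on simulated data.

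Alternatives were 16 arrays as samples, replicate number or slide as a block, slide as a random block, quantile normalization, normexp (offset 50), the value table, other filters, the mean of a gene's probes, and leaving out samples or arrays. Normexp used median spot signals, since the files read here hold no mean signal; a refit without 10 spots of extreme background was added after seeing the data.

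The members and lists were chosen with earlier results of these data known. Genes named from each of the 8 lists were, for each comparison with control, up to 3 with the largest difference among those past the threshold with 6 samples and with 16 arrays and of 1 sign under quantile normalization; for Pdia2 and Hspa5, the 5 symbols of highest correlation. Marker lists were read for choroid plexus, red blood cells, neurons, astrocytes, oligodendrocytes, microglia, endothelium and ependyma. Astrocyte markers had 0 of 5 called in each comparison with control, oligodendrocyte markers 0, 0 and 1 of 5, microglial markers 3, 4 and 2 of 7 (all lower), endothelial markers 0, 0 and 1 of 5, ependymal markers 0, 0 and 1 of 3, and neuronal markers 3, 3 and 4 of 9. Those neuronal calls were all lower, except 1 higher in insusceptible rats. Files were read and promoters searched in Python 3.11.15 (numpy 2.4.6, pandas 2.3.3), with plots by matplotlib 3.10.9.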

Additional observations from a re-analysis of the deposited data

Results flagged for a closer look

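Of the 32 sets of 4 arrays formed by the 8 measured members and the 4 groups, 1 held an array far from the rest. Atf4 stood at 4.42 on anxiety-susceptible replicate 1, against 4.33 to 4.34 on the other arrays of that group, and the gap was 0.835 of the group's range, past Dixon's limit for 4 values. Chance sets apart about 1 in 20 such groups.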

How the results depend on the processing

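The number of the 7 members called was 0, 2 and 2 for depression-susceptible, anxiety-susceptible and insusceptible rats against control, and 0 in each comparison among stressed groups. With 16 arrays as samples it was 5, 7 and 6, and 2 (depression-susceptible against insusceptible), 2 (anxiety-susceptible against insusceptible) and 5 (depression-susceptible against anxiety-susceptible). With the replicate number as a block it was 5, 7 and 5, and 2, 2 and 5. Same-numbered arrays had correlations of -0.555 to 0.135 in their deviations, against a median of 0.496 for arrays of different groups on 1 slide. As arrays of 1 group on 1 slide vary no more than spots do, this cannot tell whether the numbers pair samples. With slide as a random block it was 6, 6 and 5, and 2, 1 and 5. Slide as a fixed block gave 4 for depression-susceptible against control and could not be fitted for the others. Quantile normalization and the value table each gave 1, 1 and 2, and 0, 0 and 1. Normexp gave 0 throughout, as its fit failed on control replicate 3 and insusceptible replicate 2 (fitted background -1800.45 and -661.91); the refit gave 1, 2 and 3, and 1, 0 and 3. Requiring all 16 arrays above background gave 1, 2 and 2, and left Pdia2 out. Leaving out a sample or an array gave 0 to 0, 0 to 2 and 0 to 2, and 0 to 0 among stressed groups; the counts under 2 came from leaving out a control sample. No filter and the mean of a gene's probes changed no count.

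Pdia2 reversed under the failed normexp fit, to -0.50 for depression-susceptible against control and -0.40 for anxiety-susceptible against insusceptible rats; the refit gave 0.48 and 0.11, the sign of the measured values. Over all probes, calls numbered 1769, 5368, 5400, 15, 14 and 41 over 6 samples and 9071, 12749, 13057, 11078, 6639 and 11062 over 16 arrays, in the same order. With the replicate block they were 8553, 12413, 12693, 10552, 5773 and 10562, with slide as a random block 10400, 10150, 10248, 7197, 1977 and 7548, and with the slide block 6849 for depression-susceptible against control. Among stressed groups, quantile normalization gave 885, 64 and 1854, the authors' values 398, 48 and 1483, and the filter on all 16 arrays 7, 17 and 1164. Without a filter there were 901, 2252, 7849, 3968, 0 and 5 calls, with normexp 0, and with its refit 1453, 9531, 9937, 7440, 7 and 6909. Leaving out a sample or an array gave 391 to 1769, 779 to 5456, 954 to 5535, 0 to 15, 0 to 21 and 0 to 49. The refitted normexp moved the median of all probes to 0.15 and 0.20 in anxiety-susceptible and insusceptible rats against control. Where an alternative changed a count, the cause was not tested, apart from the failed normexp fit and from fewer or more samples in the fit. The refitted normexp, which adds an offset of 50, moved dim probes such as Pdia2, Pmaip1, Canx, Atf3 and Mbtps2. Its offset and its subtraction were not tested apart.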
